A study of Homo sapiens with 6 samples.

Results

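SAT1 and 8 other genes of polyamine metabolism (ODC1, OAZ1, OAZ2, SRM, SMS, AMD1, SMOX and PAOX) were described in RNA-seq of LM3 cells, an established human HCC cell line. Each symbol matched 1 gene, so the set held 9 of the 33007 genes of the table, and 8 of the 9 had enough counts to be tested. SAT1 was chosen for its lower level in the comparison made here, so its values are a description with no p-value. The other 8 were named for their place in the pathway, with earlier results of these data known, so their p-values are not independent of the choice. The groups were 3 control samples carrying a vector and 3 samples of cells with stable ZNF706 knockdown, and the labels gave both groups the genotype WT and no further treatment. ZNF706 encodes a C2H2 zinc finger protein, and the comparison asked how its depletion changed mRNA expression in these cells. According to the methods, the knockdown was made by lentiviral transduction of short hairpin RNAs with puromycin selection. Which hairpin the sequenced cells carried, and whether replicates were separate cultures, was not given in the sources used here, so the p-values measure the spread between these samples. Total counts lay between 62684076 and 64713764 in the controls and between 65861994 and 69057423 in the knockdown samples.

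Putrescine, spermidine and spermine are small positively charged molecules that bind nucleic acids and that dividing cells need in large amounts. Ornithine decarboxylase (ODC1) makes putrescine, S-adenosylmethionine decarboxylase (AMD1) supplies the aminopropyl donor, and SRM and SMS then make spermidine and spermine. The antizymes OAZ1 and OAZ2 bind ornithine decarboxylase, send it to the proteasome and restrain polyamine uptake. Breakdown runs through SAT1, the acetyltransferase that limits the rate of polyamine catabolism, followed by the oxidase PAOX, while SMOX oxidises spermine directly and releases hydrogen peroxide. SAT1 has also been linked to lipid peroxidation and ferroptosis, the iron-dependent form of cell death.

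The promoters of SAT1, ODC1, AMD1 and SRM are shown because the first 3 are the members past the test's threshold or chosen for their change, and SRM carries the E-box, the motif that MYC and MAX bind. Each is the 250 bases before the RefSeq start of the gene on GRCh38.p14, written 5′ to 3′ on the strand of the gene. Capitals mark the E-box CACGTG and the CCAAT box CCAAT, read on both strands. SAT1 is at chrX:23782923-23783172 on the plus strand, ODC1 at chr2:10448328-10448577 on the minus strand, AMD1 at chr6:110874535-110874784 on the plus strand and SRM at chr1:11060019-11060268 on the minus strand.
SAT1: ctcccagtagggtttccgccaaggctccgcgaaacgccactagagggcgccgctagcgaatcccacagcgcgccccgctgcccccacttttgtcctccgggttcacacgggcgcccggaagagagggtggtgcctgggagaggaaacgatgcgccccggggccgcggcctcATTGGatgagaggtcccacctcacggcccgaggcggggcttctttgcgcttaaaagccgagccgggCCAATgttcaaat
ODC1: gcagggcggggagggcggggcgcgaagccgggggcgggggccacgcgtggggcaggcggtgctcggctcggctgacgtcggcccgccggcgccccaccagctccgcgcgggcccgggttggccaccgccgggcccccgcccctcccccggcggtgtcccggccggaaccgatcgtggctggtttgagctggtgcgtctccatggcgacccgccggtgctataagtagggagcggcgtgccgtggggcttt
AMD1: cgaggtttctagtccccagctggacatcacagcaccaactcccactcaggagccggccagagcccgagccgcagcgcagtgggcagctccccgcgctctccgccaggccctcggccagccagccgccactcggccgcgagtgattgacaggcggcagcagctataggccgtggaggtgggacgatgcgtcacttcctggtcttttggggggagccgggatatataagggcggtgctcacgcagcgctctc
SRM: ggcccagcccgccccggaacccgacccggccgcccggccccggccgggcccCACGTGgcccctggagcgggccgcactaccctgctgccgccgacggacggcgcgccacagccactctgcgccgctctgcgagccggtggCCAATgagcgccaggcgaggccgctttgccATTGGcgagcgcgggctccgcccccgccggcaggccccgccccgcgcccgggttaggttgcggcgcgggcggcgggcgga
In the SAT1 window the CCAAT letters began at positions -79 and -13, counted back from that start. In the SRM window they began at -110 and -80, beside an E-box at -199. CCAAT was present in 32.0% and the E-box in 6.34% of the 35116 RefSeq promoter windows of this length. The ODC1 window shown holds 4 copies of the GC box GGGCGG and no E-box, and a second RefSeq start of ODC1, 315 bases into the gene, had an E-box at -29. The GC box was in 42.6% of all windows. The TATA box TATAAA (10.7% of all windows), the antioxidant response core TGACNNNGC (10.9%) and the amino acid response core TGATGNAAN (3.13%), each read on both strands, had no match in any of the 10 windows of the 7 members that RefSeq entries covered, which says only that these letters are not there.

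The targeted gene was measured first, as a check of the labels. Counts of ZNF706 (ENSG00000120963) were 3211, 3504 and 3357 in controls 1 to 3 and 2350, 2068 and 2298 in knockdown replicates 1 to 3. As counts-per-million (CPM), scaled for composition by TMM, they came to 53.9 ± 1.76 and 32.4 ± 1.39 CPM (SD, n = 3 each). The log2 fold change of knockdown over control was -0.73 (standard error 0.050, edgeR quasi-likelihood adjusted p = 3.7e-05). The knockdown samples were all below the controls, and ZNF706 transcript remained in each of them.

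Markers of the labelled cell type and of other cells were read next. The epithelial keratins KRT8 and KRT18 were abundant, with control means of 1537 and 963 CPM. The hepatocyte gene ALB was low and uneven, at 3.05, 14.1 and 14.4 CPM in the controls and 8.37, 9.47 and 1.97 in the knockdown samples, and AFP followed the same pattern at 4.11 CPM or less. Control replicate 1 and knockdown replicate 3 were the low samples for both genes, and also for GPC3, EPCAM and TTR. For APOA1, APOB, SERPINA1 and the keratins, knockdown replicate 3 was not the lowest of its group. The fibroblast gene COL1A2, which was not tested, ran the other way. It had 117, 8 and 0 counts in the controls and 0, 0 and 119 in the knockdown samples. Summed over 10 HCC and epithelial markers, the level was 2441, 2506 and 2632 CPM in the controls and 2386, 2470 and 2511 in the knockdown samples, and the groups overlapped, but the 2 keratins made up nearly all of that sum. With an adjusted p below 0.05 as the threshold, 2 of the 10 markers (20%) were lower and none higher, against 22.8% of all 18390 tested genes in either direction and 12.4% lower. SERPINA1, a secreted protease inhibitor, fell from 4.37 ± 1.17 to 1.58 ± 0.432 CPM (log2 fold change -1.47, edgeR adjusted p = 0.0034). APOB, an apolipoprotein, fell from 3.89 ± 1.24 to 1.97 ± 0.331 CPM (log2 fold change -0.98, edgeR adjusted p = 0.021). The 6 fibroblast markers, led by COL1A1, summed to 88.9, 79.7 and 83.4 CPM in the controls and 95.3, 97.1 and 95.2 in the knockdown samples, without overlap. Of the 5 tested, 2 were higher, against 10.4% of all tested genes. COL1A1 rose from 73.8 to 85.0 CPM (edgeR adjusted p = 0.0023) and PDGFRB from 5.44 to 8.70 CPM (log2 fold change 0.68, edgeR adjusted p = 0.0030), and none was called lower. The other 3 tested were low and uneven: COL3A1 had 5.43, 0 and 0.782 CPM in the controls and 0.599, 0.909 and 0 in the knockdown samples (log2 fold change -2.04, edgeR adjusted p = 0.34). LUM differed by -1.26 on the log2 scale (edgeR adjusted p = 0.12) and DCN by -0.04 (edgeR adjusted p = 0.97), both under 3 CPM in every sample. The 4 endothelial markers found, led by CDH5, summed to 13.6, 14.9 and 16.5 CPM and 11.3, 12.6 and 13.2 CPM, without overlap. CDH5 fell from 8.83 to 5.42 CPM (edgeR adjusted p = 0.0014), whereas PECAM1 was at 6.06 and 6.73 CPM (log2 fold change 0.15, edgeR adjusted p = 0.54) and VWF and TEK were near 0. The 5 blood cell markers found summed to 2.62 CPM or less in every sample, and PTPRC, which all leukocytes carry, had no count in the knockdown samples. The part of these markers in the results was not tested.

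Among the 8 tested members, SAT1 differed most between the groups, ODC1 was slightly lower, AMD1 was slightly higher, and the antizymes showed no detectable difference. Of the 7 tested members other than SAT1, AMD1 was higher and ODC1 lower with an adjusted p below 0.05 (edgeR's quasi-likelihood test). The share of all tested genes past this threshold was 22.8%, with 10.4% higher and 12.4% lower, and among the 4653 genes with a mean of at least 50 CPM, a level that all 8 tested members reached, the share was 43.8%. The groups did not overlap for 6 of the 8 members, SAT1 among them, against 39.4% of all tested genes. SAT1 was chosen from this comparison and the others with its results known, so nothing is read from the members' counts. SAT1, chosen for its change, was past an absolute log2 fold change of 0.3, the limit the study applied beside a DESeq2 p below 0.05. The plot of the members by sample shows the 8 tested genes.

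**Figure D1:**
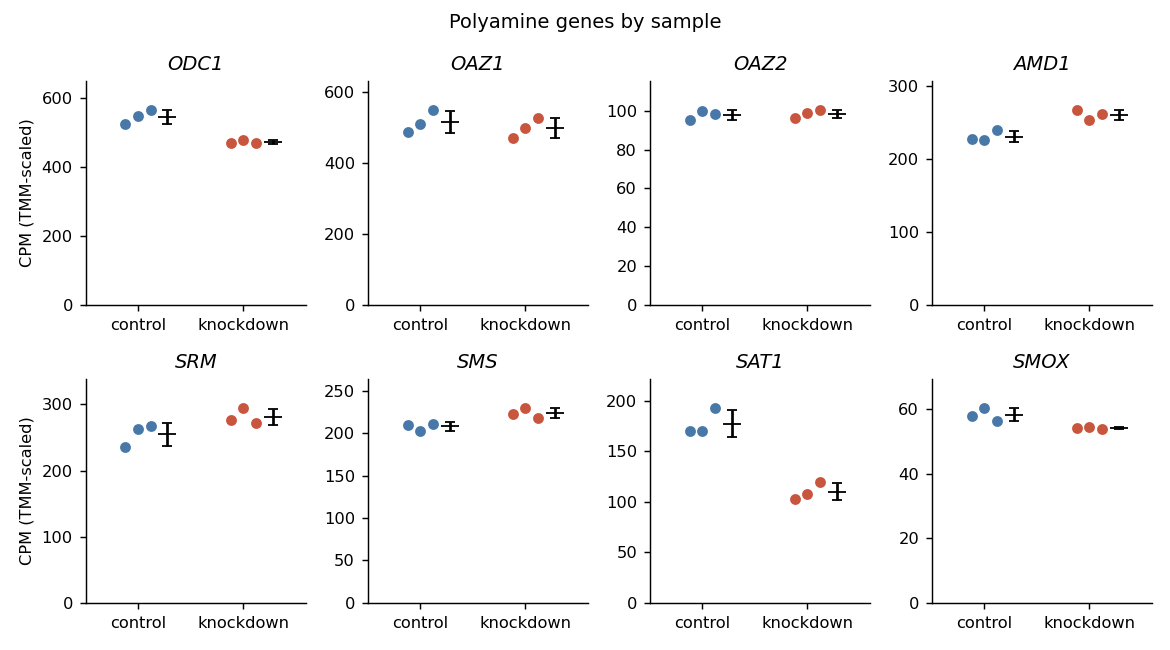
Level of the 8 tested polyamine genes in each sample, as TMM-scaled CPM on axes that start at 0. Points are samples (3 control, 3 knockdown), and the bar beside them is the mean with its SD. SAT1 has a mean of 177 CPM in the controls and 110 CPM in the knockdown, and OAZ1 and OAZ2 overlap between the groups.

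SAT1 (ENSG00000130066) lies on chromosome X, 23783173 to 23786226, plus strand (GRCh38). Its counts were 10497, 10784 and 11828 in the controls. The knockdown samples had 7237, 7202 and 8376 counts, although each of these libraries was larger than every control library. As CPM the levels were 169.6, 169.6 and 192.7 CPM in the controls and 103.2, 107.4 and 119.7 CPM in the knockdown samples. Replicate 3 was the highest sample of either group, and the highest knockdown sample lay below the lowest control. The group means were 177 ± 13.3 and 110 ± 8.58 CPM (SD, n = 3 each), a change of -37.9%. The log2 fold change was -0.69 with a standard error of 0.065 (unadjusted 95% interval -0.83 to -0.54). The interval does not allow for the choice of SAT1 by its fall, so it is a description and not a test. Among all 18390 tested genes, 3.95% had a lower log2 fold change. Without control replicate 3 the value was -0.63 and without knockdown replicate 3 it was -0.75, the ends of its range when each sample was left out. Without control replicate 1, the other sample low in ALB, it was -0.72. In RNA from a whole culture, less SAT1 mRNA in every cell and fewer cells that express it cannot be told apart.

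**Figure D2:**
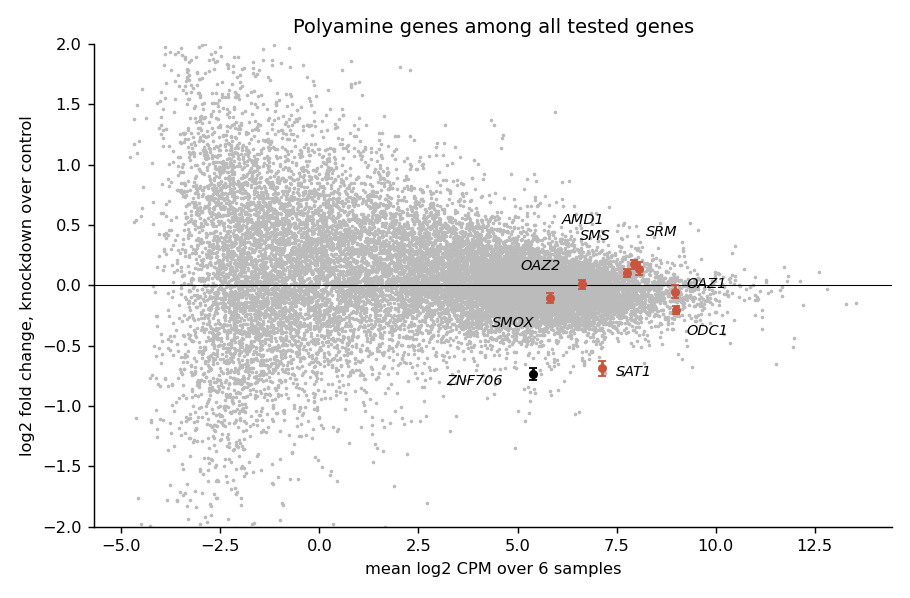
Log2 fold change of knockdown over control against the mean log2 CPM over the 6 samples, for all tested genes in grey, the 8 polyamine genes in red and ZNF706 in black, with standard errors as bars. The vertical axis stops at 2 in either direction, which leaves out 109 of the 18390 genes. On the vertical axis SAT1 lies near ZNF706, apart from the other members, which sit within 0.3 of 0.

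ODC1 and the antizymes set the first step of synthesis and its brake. ODC1 (ENSG00000115758, chromosome 2, 10439968 to 10448327, minus strand) had 522.2, 547.6 and 563.3 CPM in the controls and 468.8, 478.0 and 469.7 CPM in the knockdown samples. All knockdown samples lay below all controls, and they differed from each other by less than the controls did. ODC1 fell from 544 ± 20.7 to 472 ± 5.06 CPM (SD, n = 3 each), with a log2 fold change of -0.21 (standard error 0.034, 95% interval -0.28 to -0.13, edgeR adjusted p = 0.0024). It stayed past the threshold in each of 14 alternative analyses.

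OAZ1 (ENSG00000104904, chromosome 19, 2269509 to 2273490, plus strand), the main antizyme, had 486.6, 510.3 and 547.6 CPM in the controls and 468.5, 497.8 and 524.7 CPM in the knockdown samples. The groups overlapped, and the log2 fold change was -0.05 (95% interval -0.17 to 0.06, edgeR adjusted p = 0.54). It lay between -0.094 (without control replicate 1) and -0.0067 (without control replicate 3) with each sample left out, and it was -0.12 with the GC trend removed (edgeR adjusted p = 0.12). OAZ2 (ENSG00000180304, chromosome 15, 64687573 to 64703281, minus strand), a second antizyme, had 95.07, 99.91 and 98.4 CPM and then 96.29, 98.56 and 100.2 CPM. These values overlapped as well, with an interval of the log2 fold change from -0.07 to 0.09 (edgeR adjusted p = 0.91). The intervals bound what 3 samples per group could show for these antizymes, and smaller differences could not be resolved. OAZ1 shares its locus with JSRP1 on the opposite strand, which had 125, 171 and 185 counts in the controls and 326, 194 and 328 in the knockdown samples. Against 30117 to 36715 counts of OAZ1 these were few, and whether the counting used strand was not given in the sources used here.

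AMD1, SRM and SMS carry the synthesis on to spermidine and spermine, and all 3 had higher values in the knockdown, of which AMD1 passed the test. AMD1 (ENSG00000123505, chromosome 6, 110874770 to 110898879, plus strand) had 226.8, 225.6 and 239.2 CPM in the controls and 266.6, 253.2 and 261.6 CPM in the knockdown samples. The groups did not overlap. AMD1 rose from 231 ± 7.53 to 260 ± 6.76 CPM (SD, n = 3 each), a log2 fold change of 0.18 (standard error 0.037, 95% interval 0.094 to 0.26, edgeR adjusted p = 0.0076). It was past the threshold in all 14 alternatives, and with each library's trend on GC content removed the log2 fold change was 0.30.

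SRM (ENSG00000116649, chromosome 1, 11054584 to 11060018, minus strand), spermidine synthase, had 235.4, 262.1 and 267.8 CPM in the controls and 276.4, 294.5 and 271.9 CPM in the knockdown samples. The lowest control stood well below the other two, and the groups did not overlap. The log2 fold change was 0.14 (standard error 0.052, unadjusted 95% interval 0.023 to 0.26), and it did not pass the test (edgeR adjusted p = 0.084). Without control replicate 1 it was 0.080. SMS (ENSG00000102172, chromosome X, 21940709 to 21994837, plus strand), spermine synthase, had 210.0, 202.1 and 211.0 CPM and then 222.0, 229.5 and 218.2 CPM. Here too every knockdown sample was above every control, with a log2 fold change of 0.10 (standard error 0.035) that missed the threshold (edgeR adjusted p = 0.059). Both synthases crossed it under some alternatives: SRM had an adjusted p of 0.013 and SMS of 0.017 with DESeq2, while the value of SRM was 0.05 on the log2 scale with the GC trend removed (edgeR adjusted p = 0.51).

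The 2 oxidases differed in level. SMOX (ENSG00000088826, chromosome 20, 4120980 to 4187747, plus strand), spermine oxidase, had 58.08, 60.47 and 56.5 CPM in the controls and 54.33, 54.62 and 53.83 CPM in the knockdown samples. The knockdown samples lay close together just below the lowest control. The log2 fold change of -0.10 (standard error 0.040, unadjusted 95% interval -0.19 to -0.016) did not pass the test (edgeR adjusted p = 0.087), and its size moved with the scaling. It was -0.18 with the GC trend removed (edgeR adjusted p = 0.013), -0.05 under library size alone (edgeR adjusted p = 0.43) and -0.06 with limma on FPKM (adjusted p = 0.30). PAOX (ENSG00000148832, chromosome 10, 133379261 to 133391694, plus strand), which oxidises the acetylated polyamines that SAT1 makes, had 8 counts in control replicate 2 and 0 in the other 5 samples and was not tested. The gene AL360181 overlaps PAOX on the same strand and had 206, 136 and 169 counts in the controls and 117, 75 and 153 in the knockdown samples, so the counting could split reads between them. Added together, both genes had 206, 144 and 169 counts and then 117, 75 and 153, which overlapped before scaling for library size. As CPM, AL360181 alone had 3.33, 2.14 and 2.75 and then 1.67, 1.12 and 2.19, which overlapped too. Its log2 fold change was -0.72 (edgeR adjusted p = 0.085). With the 0.126 CPM of PAOX in control replicate 2 added, the groups did not overlap.

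Ratios of 2 genes within a sample do not depend on how libraries are scaled. They were taken from the deposited FPKM, in which counts are divided by gene length and by library size. The SAT1:ODC1 ratio was 0.3627, 0.346 and 0.3821 in the controls and 0.2459, 0.2509 and 0.2846 in the knockdown samples. Every knockdown sample lay below every control, the average change was -28.4%, and as SAT1 was chosen for its level this is a description. The ODC1:OAZ1 ratio, which sets the enzyme transcript against that of its main inhibitor, was 1.321, 1.321 and 1.267 in the controls and 1.232, 1.182 and 1.102 in the knockdown samples. The groups did not overlap, the difference of the log2 ratios was -0.15, and a two-sided exact permutation test gave p = 0.1, the smallest value that 3 against 3 samples allow. The OAZ2:OAZ1 ratio overlapped between the groups (difference 0.058 on the log2 scale, exact permutation p = 0.4), as did SMS:SRM (difference -0.037, exact permutation p = 0.9). The OAZ2:OAZ1 difference was 0.017 without control replicate 3 and 0.031 without knockdown replicate 1. The SMS:SRM ratio was 0.8342 in control replicate 1 and between 0.721 and 0.7509 in the other 5 samples, and without that replicate the difference was 0.028. With 3 ratios tested, none could pass a threshold of 0.05.

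**Figure D3:**
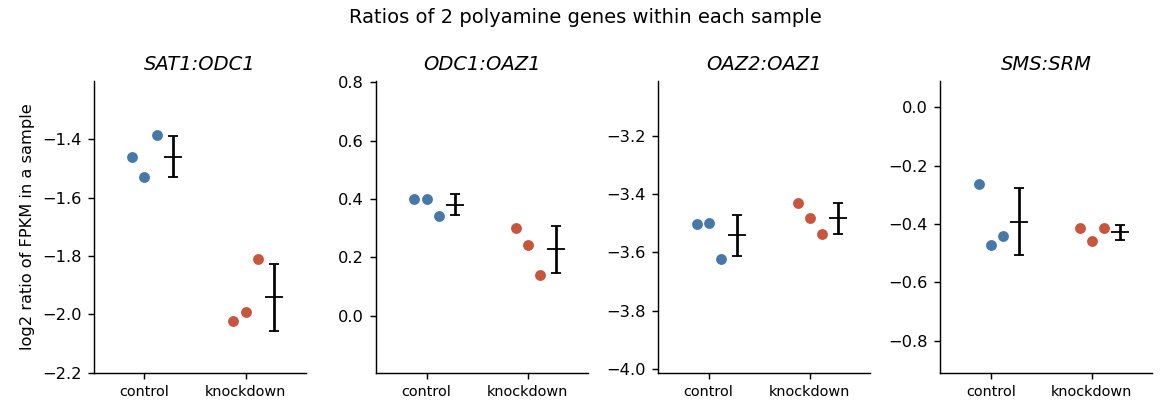
Log2 ratio of the FPKM of 2 polyamine genes within each sample, with points for the 3 control and 3 knockdown samples and bars for the mean and SD. All panels span 1 log2 unit and do not start at 0. SAT1:ODC1 and ODC1:OAZ1 do not overlap between the groups, and control replicate 1 stands above the other samples for SMS:SRM.

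Levels between genes were compared per length. By FPKM the order in the controls was ODC1 (168 ± 4.94), OAZ1 (129 ± 6.57), SRM (116 ± 6.97), SMS (88.4 ± 2.12), SAT1 (61.2 ± 4.11), AMD1 (19.5 ± 0.502), SMOX (17.1 ± 0.657) and OAZ2 (10.99 ± 0.227; SD, n = 3 each). No 2 neighbours in that order overlapped over the 3 samples. In the knockdown samples SRM (132 ± 5.91) and OAZ1 (129 ± 7.13) overlapped and could not be ordered, and SAT1 was at 39.3 ± 2.98, between SMS (98.3 ± 2.74) and AMD1 (22.8 ± 0.567). The FPKM values imply a SAT1 length of 2846 bases and an OAZ1 length of 3914 bases, whereas the principal GENCODE transcripts have 1065 and 1148 bases. As counts per kilobase of the principal transcript, scaled to the library total without TMM as FPKM is, OAZ1 led in both groups (440 in the controls and 441 in the knockdown). This scale was chosen after seeing the data. On that scale SAT1 stood at 163 ± 11.1 in the controls, below ODC1 (201) and SRM (198) and above SMS (111). In the knockdown it stood at 105 ± 7.70, below SMS (124). The place of SAT1 in the order thus changed with the length used in the controls, and in the knockdown it did not.

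**Figure D4:**
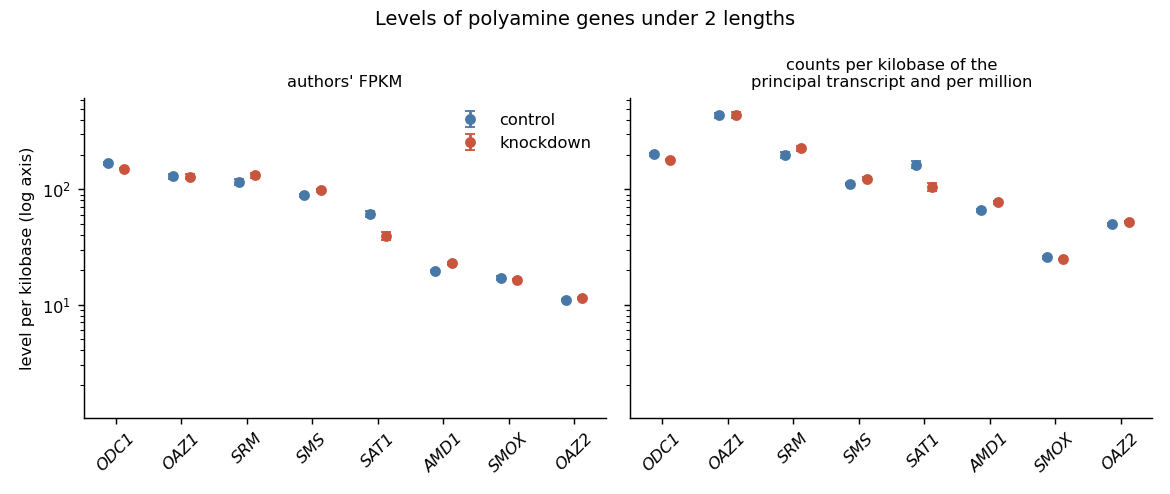
Level of the 8 polyamine genes by the authors' FPKM (left) and by counts per kilobase of the principal transcript, scaled to the library total (right), on a log axis. Points are means of 3 samples with SD bars, blue for control and red for knockdown. OAZ1 moves from 129 to 440 in the controls between the lengths, and SAT1 is the gene whose group means lie farthest apart.

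A set of 8 lists of pathway genes around the members, put together by role, held 57 genes, of which 55 were in the table and 49 were tested. Of the 49, 5 were higher and 7 lower in the knockdown (24.5%, against 22.8% of all genes), with a median log2 fold change of 0.0036 against 0.0095 over all genes. Under library size alone 11 were higher and 5 lower, so the balance of directions turned with the scaling. With TMM the share past the threshold over the 49 was close to that of the whole table. By list it ran from 14.3% (amine oxidation) to 50% (relatives of the antizymes and of SAT1). Each list is small, and of all tested genes 10.4% were higher and 12.4% lower.

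Among 4 relatives of the antizymes and of SAT1, 2 rose and none fell (50%, against 22.8% of all tested genes). AZIN1, an antizyme inhibitor that frees ornithine decarboxylase from antizyme, rose from 134 ± 8.43 to 155 ± 4.24 CPM (log2 fold change 0.20, edgeR adjusted p = 0.014). Its groups did not overlap, but without control replicate 3 the adjusted p in edgeR was 0.051 and without knockdown replicate 2 it was 0.059. AZIN2, a second antizyme inhibitor, was far less abundant, with 25, 33 and 32 counts in the controls and 111, 98 and 85 in the knockdown samples. Every knockdown sample had more than every control, and AZIN2 rose from 0.481 to 1.42 CPM (log2 fold change 1.56, standard error 0.28, edgeR adjusted p = 0.0037). SAT2, the closest relative of SAT1, was at 11.7 ± 1.55 and 11.4 ± 1.18 CPM with overlapping groups (edgeR adjusted p = 0.86). OAZ3, the antizyme of the testis, was at 1.93 CPM or less and did not pass the test either (log2 fold change 0.32, edgeR adjusted p = 0.30).

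The precursors of the pathway are ornithine and S-adenosylmethionine. Of 8 genes of arginine and ornithine supply, 1 rose and 1 fell. ASS1, argininosuccinate synthase, fell from 546 ± 21.6 to 450 ± 32.5 CPM (log2 fold change -0.28, edgeR adjusted p = 0.0041). OAT, ornithine aminotransferase, rose from 85.4 ± 1.71 to 94.0 ± 3.39 CPM (log2 fold change 0.14, edgeR adjusted p = 0.030), a call that ended without control replicate 1, 2 or 3 or knockdown replicate 1 or 3, with an adjusted p of up to 0.099 in edgeR. With the GC trend removed the log2 fold change of OAT was 0.24. ARG2, the mitochondrial arginase, was low at 1.95 ± 0.454 and 1.81 ± 0.176 CPM, and ARG1 had too few counts to test.

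Of 5 tested genes of the methionine cycle, AHCY, which removes S-adenosylhomocysteine, rose from 193 ± 4.99 to 224 ± 4.93 CPM (log2 fold change 0.22, edgeR adjusted p = 0.0019) and none fell. MAT2A, which makes S-adenosylmethionine outside the normal adult liver, was at 465 ± 6.76 and 455 ± 13.4 CPM (edgeR adjusted p = 0.52), and the liver enzyme MAT1A was near 0. Methylthioadenosine, the by-product of spermidine and spermine synthesis, is cleared by MTAP, which fell from 110 ± 2.31 to 89.8 ± 2.34 CPM (log2 fold change -0.29, edgeR adjusted p = 6e-04). In all 3 knockdown samples MTAP was below every control, and with the GC trend removed its log2 fold change was -0.17 (edgeR adjusted p = 0.022). None of the other 4 salvage genes passed the test.

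Transport and use of polyamines gave calls in both directions. ATP13A3, a P5B-type ATPase that takes up polyamines, fell from 507.6, 487.9 and 501.2 CPM in the controls to 411.9, 404.5 and 388.5 CPM in the knockdown samples (log2 fold change -0.31, standard error 0.033, edgeR adjusted p = 0.00027). SLC12A8, a solute carrier linked to polyamine and amino acid transport, rose from 9.93 ± 0.433 to 16.1 ± 1.03 CPM (log2 fold change 0.70, edgeR adjusted p = 0.00064). Neither gene overlapped between the groups, and with the GC trend removed the log2 fold change of ATP13A3 was -0.19 (edgeR adjusted p = 0.0019). The other 6 tested transport genes did not pass the test, among them the lysosomal exporter ATP13A2 (log2 fold change 0.15, edgeR adjusted p = 0.11).

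Spermidine is also used to make hypusine on the translation factor EIF5A. EIF5A itself was at 709 ± 34.9 and 728 ± 3.55 CPM with overlapping groups (edgeR adjusted p = 0.52). Of the 4 genes of this step, DOHH, the hydroxylase that completes hypusine, was lower at 20.9 ± 2.37 against 26.8 ± 2.91 CPM (log2 fold change -0.36, edgeR adjusted p = 0.034). Its groups overlapped, and the call ended without control replicate 2 or 3 or knockdown replicate 1 or 2, with an adjusted p of up to 0.12 in edgeR. Among 7 tested genes of amine and aldehyde oxidation, ALDH2, the mitochondrial aldehyde dehydrogenase, fell from 76.1 ± 2.56 to 61.3 ± 3.29 CPM (log2 fold change -0.31, edgeR adjusted p = 0.0015) and the other 6 did not pass the test.

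The last list held known regulators of SAT1 and ODC1 and the lipoxygenases. Of its 8 tested genes reported here, 2 fell and none rose. ATF4, the stress-response factor, fell from 309 ± 9.02 to 251 ± 11.8 CPM (log2 fold change -0.30, edgeR adjusted p = 0.00089). MYC, which activates ODC1 transcription in many cells, fell from 291 ± 9.07 to 263 ± 9.40 CPM (log2 fold change -0.15, edgeR adjusted p = 0.023), and this call ended without control replicate 2 or 3 or knockdown replicate 1 or 2, with an adjusted p of up to 0.093 in edgeR. Scaled by library size alone, MYC differed by -0.09 on the log2 scale (edgeR adjusted p = 0.10). NFE2L2, the antioxidant regulator that also acts on SAT1, was at 131 ± 7.22 and 120 ± 3.44 CPM (edgeR adjusted p = 0.078). ALOX15, the lipoxygenase linked to SAT1 in ferroptosis, had too few counts to test. The other 5 lipoxygenases tested stayed at 2.30 CPM or less in every sample and did not pass the test. ALOX15B came nearest, at 0.895 ± 0.153 and 1.76 ± 0.645 CPM with overlapping groups (log2 fold change 0.97, edgeR adjusted p = 0.055).

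**Figure D5:**
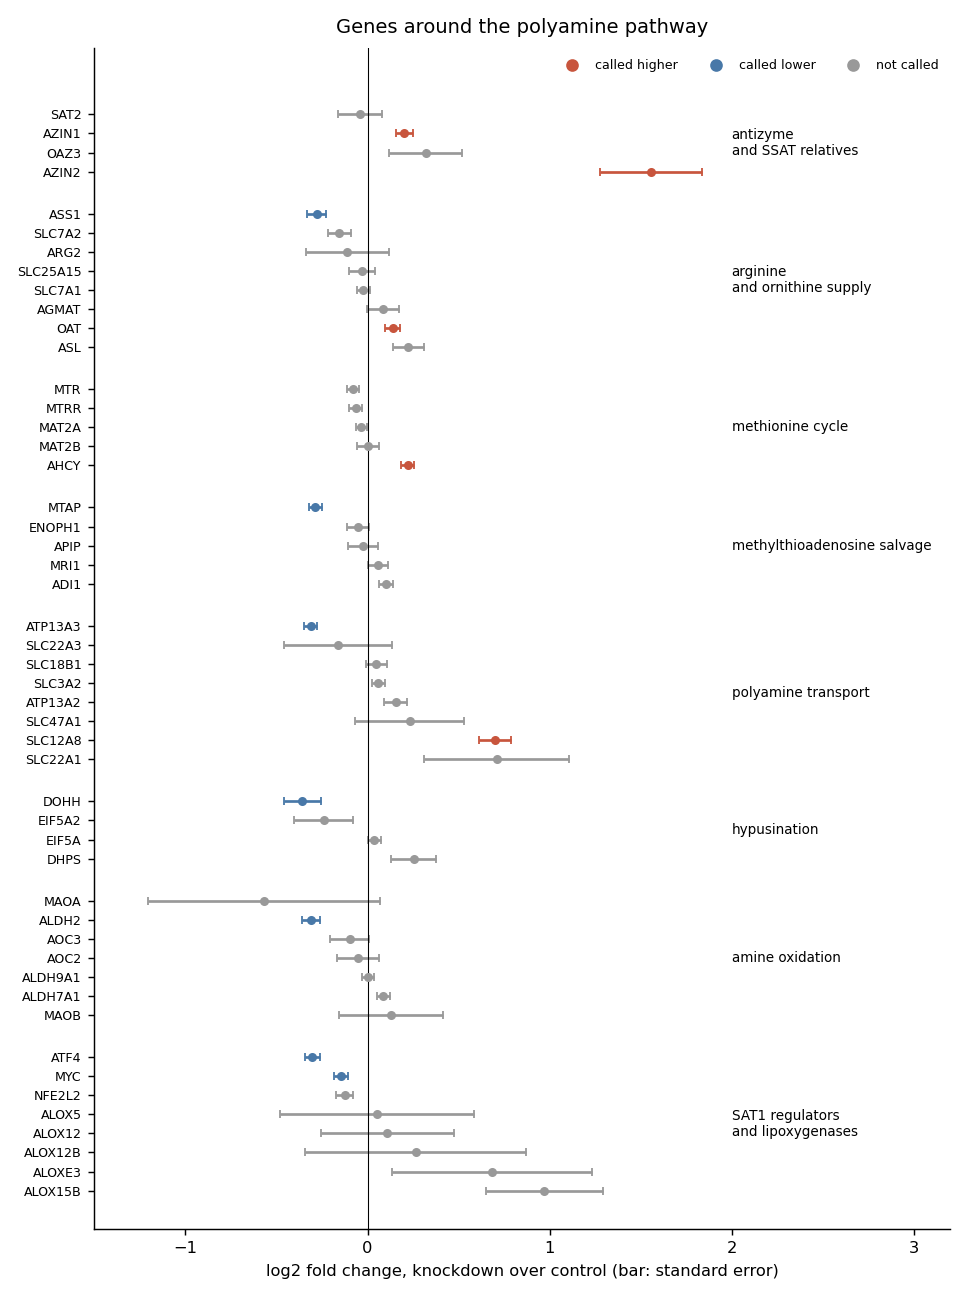
Log2 fold change of knockdown over control, with standard errors, for the 49 tested genes of 8 pathway lists. Red marks genes that were higher and blue those that were lower with an adjusted p below 0.05 in edgeR's quasi-likelihood test, and grey marks the rest. Arginine and ornithine supply and polyamine transport hold genes of both colours, and AZIN2 lies farthest from 0.

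The genes whose profile over the 6 samples was most like that of SAT1 were ranked by the Euclidean distance between log2 CPM values centred on each gene's mean, among the 14125 genes whose counts averaged 50 or more. The 5 nearest were ARNT2 (distance 0.110), CDH5 (0.112), UBALD2 (0.117), HSPA8 (0.124) and MT-TA (0.131). HSPA8, the constitutive HSP70 chaperone, was the most abundant of them, at 3474, 3721 and 3806 CPM in the controls and 2202, 2316 and 2481 CPM in the knockdown samples. ARNT2, a basic helix-loop-helix factor, had 71.77, 70.89 and 77.67 CPM and then 44.57, 42.19 and 49.77 CPM. CDH5, the endothelial cadherin, is also one of the endothelial markers above, at 8.83 and 5.42 CPM on average. Their log2 fold changes lay between -0.70 and -0.61, around the -0.69 of SAT1, which the way they were found fixes in advance.

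Copies of the members elsewhere in the genome could share reads with them. The 7 listed pseudogene copies (AMD1P1 to AMD1P4, OAZ1P1, SRMP2 and SRMP3) had too few counts to test. ODCP, the ODC1 pseudogene, named after its values were seen, was at 0.257 and 0.399 CPM on average (edgeR adjusted p = 0.42), against 472 CPM or more for ODC1.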

How the data were processed

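RNA-seq libraries of 6 LM3 samples were sequenced on the Illumina NovaSeq system. The submitters' processing notes name cutadapt 1.9, FastQC and GRCh38, and the study's methods name HISAT2 for mapping. The counting program, strand setting and annotation release were not given in the sources used here; 99.98% of 32092 genes shared by ID overlapped their GENCODE 29 position. The authors deposited raw read counts per gene, whole numbers without normalization, and FPKM values per gene, which they scaled to length and library size. The depth was 62684076 to 69057423 counts per sample.

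The quasi-likelihood test of edgeR 4.0.16 (R 4.3.3) was run on the counts after filterByExpr and TMM scaling, with a term for the group only and Benjamini-Hochberg adjustment over 18390 genes. A call is an adjusted p below 0.05. Standard errors came from the F statistic of each gene. Ratios used log2(FPKM + 0.1) and exact permutation tests. The study used DESeq2; DESeq2 1.42.0 and limma 3.58.1 on log2(FPKM + 0.1) were alternatives, with other scalings, filters on low counts, a replicate block, a GC correction and each sample left out. Counts were tested on simulated data first, and no result given here rests on that check. Per-sample columns outside the mapped 6 samples numbered 0.

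The members and gene lists were chosen with earlier results of these data known. The genes named are the 9 members, ZNF706, the pathway list genes past the threshold with examples of the rest, numbered pseudogene copies, genes with a polyamine GO term in the table, the 5 genes nearest to SAT1 and, beside that rule, cell type markers, genes that overlap a member, and ODCP. The authors' annotation columns gave the GO terms. A gene of the regulator list is not reported here and is not in its counts. Promoters came from RefSeq (GRCh38.p14), which matched 7 of 9 members.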

Additional observations from a re-analysis of the deposited data

How the results depend on the processing

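Leaving out each sample moved the log2 fold change of SAT1 between -0.75 and -0.63, and over all 14 alternatives it stayed between -0.75 and -0.61. ODC1, AMD1 and ZNF706 kept their direction and their call in the same 14. With each sample left out, between 2648 and 3424 of all genes were called (1148 to 1485 higher, 1500 to 1939 lower) and fewest without knockdown replicate 2; the cause was not tested. With no filter 1253 genes were higher. Scaled by library size alone, the calls split into 2742 higher and 1518 lower, against 1906 and 2286 with TMM, as this scaling moved the median log2 fold change of all genes from 0.0095 to 0.063; limma on FPKM gave 2279 and 1539. Of the pathway genes, 11 were higher and 5 lower under library size, 3 were higher with no filter, and 3 to 5 were higher with a sample left out (3 without control replicate 3). Without SAT1, which has no test, 2 members were called, and 4 were under DESeq2, library size, limma on FPKM and the GC correction. Members called higher were 3 under DESeq2, library size and limma, and 2 with a mean count of at least 50, with the replicate block and with the GC correction. SMS joined AMD1 in 5 of these and SRM in 4, and SMOX joined ODC1 with the GC correction, where 2 were lower; the cause was not tested. With no filter the calls of AZIN1, OAT, DOHH and MYC ended (adjusted p of 0.051, 0.063, 0.094 and 0.055 in edgeR), as did those of DOHH (0.056) and MYC (0.10) under library size and that of MYC with limma on FPKM (0.078). Values near 0 changed sign: OAZ1 was 0.0031 under library size, OAZ2 was -0.016 without control replicate 1 and -0.0048 without knockdown replicate 3, SMS:SRM ranged from -0.077 to 0.028 (0.028 without control replicate 1), and HNRNPD was 0.024 with the GC correction. Same-numbered samples did not deviate together over all genes (correlations 0.025, -0.038 and 0.019), a check that cannot tell whether single genes share a pairing. The replicate block lowered the standard error of SAT1 from 0.065 to 0.032 and that of OAZ1 from 0.051 to 0.025. For SMS it was 0.035 without the block and 0.036 with it. The replicate block called 4361 genes and gave SRM an adjusted p of 0.045 in edgeR. Counts of the members other than PAOX were 3468 or more in every sample.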

Other observations

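The table's own GO annotation names polyamine, spermine, spermidine or putrescine for 22 genes, of which 21 were tested, 4 were higher and 4 lower in the knockdown (38.1%, against 22.8% of all tested genes), and the median log2 fold change was 0.083 against 0.0095. The 4 lower genes and the 38.1% count SAT1, which was chosen from this comparison and is given no p-value. The list also holds all 9 members, so nothing is read from its counts. Of those past the threshold, all but TAF7 and HNRNPD are members or list genes described above. TAF7, a TFIID subunit annotated to spermine transport, rose from 76.0 ± 0.577 to 93.2 ± 1.53 CPM (log2 fold change 0.29, edgeR adjusted p = 0.00034) with no overlap between the groups. HNRNPD, an RNA-binding protein annotated to the response to putrescine, was at 430 ± 8.61 and 400 ± 6.76 CPM (log2 fold change -0.11, edgeR adjusted p = 0.035), but it was past the threshold in only 4 of 14 alternatives, and its sign turned with the GC trend removed. HDAC10, a polyamine deacetylase, was at 6.73 CPM or less and did not pass the test (log2 fold change 0.080, edgeR adjusted p = 0.78).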
